A study of Rattus norvegicus with 6 samples.

Results

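Complement genes were examined in primary rat microglia that received LPS with or without siponimod. The set held 9 genes chosen by name, namely the C1q chain genes C1qa, C1qb and C1qc, the C3 convertase genes C2, C3, Cfb and Cfp, and the anaphylatoxin receptor genes C3ar1 and C5ar1. Of these, 7 had a row among the 23139 genes of the count tables and all 7 passed the filter on low counts. C2 and C5ar1 were not analysed here.

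Microglia came from cortices of Wistar rats at postnatal day 1. They were shaken off mixed cortical cultures, purified with magnetic beads against CD11b/c and treated 1 day after isolation. All 6 libraries received LPS (lipopolysaccharide, a component of the bacterial outer membrane) at 100 ng/mL. The LPS group (3 libraries) had DMSO as vehicle, and the LPS/siponimod group (3 libraries) had 50 µM siponimod, a modulator of sphingosine 1-phosphate receptors. Libraries without LPS or with siponimod alone were not analysed here, so every difference below is between LPS/siponimod and LPS. The methods describe the 3 libraries of a condition as biological replicates and count n in independent experiments, and they do not state what libraries with the same number share. Total counts were 39484979, 38301365 and 38080379 in LPS replicates 1 to 3 and 46643859, 43336006 and 38857441 in LPS/siponimod replicates 1 to 3, so that 1 read was worth 0.0215 to 0.0270 CPM, the read count scaled to the normalised library size.

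Complement is a cascade of plasma and tissue proteins that marks targets for uptake by phagocytes. C1q recognises targets and starts the classical pathway through its proteases C1r and C1s, C3 is cleaved by convertases to an opsonin and to the anaphylatoxin C3a, and factor B and properdin form and stabilise the convertase of the alternative pathway, which amplifies the cascade. In the brain, microglia are a main source of C1q, and C1q and C3 are known for tagging synapses that microglia then remove.

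The C1q chain genes lie next to each other in the order C1qb, C1qc, C1qa in the RefSeq annotation of the rat (GRCr8). RefSeq promoter entries were matched for 5 of the 7 genes (C1qa, C1qb, C3, Cfp and C3ar1). Over the 6 libraries, log2 CPM of C1qa, C1qb and Cfp correlated at 0.983 to 0.992 with each other and at 0.945 to 0.977 with C3. After centring on condition means these ranges overlapped, at 0.960 to 0.992 and 0.941 to 0.982. The 250 bases before the annotated start are printed for 4 of the 5 genes, C1qa, C1qb and Cfp because their values followed each other from library to library, and C3ar1 as the member with the lowest log2 fold change. They are chr5:154419934-154420183 for C1qa, chr5:154407828-154408077 for C1qb and chr4:157756531-157756780 for C3ar1, on the minus strand of GRCr8, and chrX:3715301-3715550 on the plus strand for Cfp, all written 5′ to 3′ in the direction of the gene. Capitals mark matches, on either strand, to 3 motifs, namely GAAANNGAA, a short form of the interferon-stimulated response element, TTCNNNGAA, the GAS element that STAT proteins bind, and GAGGAA, the core bound by the myeloid factor PU.1.
C1qa: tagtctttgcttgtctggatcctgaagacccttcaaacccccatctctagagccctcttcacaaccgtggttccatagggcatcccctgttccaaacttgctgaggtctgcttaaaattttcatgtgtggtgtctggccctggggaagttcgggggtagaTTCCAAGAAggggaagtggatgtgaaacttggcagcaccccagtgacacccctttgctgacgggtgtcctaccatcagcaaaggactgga
C1qb: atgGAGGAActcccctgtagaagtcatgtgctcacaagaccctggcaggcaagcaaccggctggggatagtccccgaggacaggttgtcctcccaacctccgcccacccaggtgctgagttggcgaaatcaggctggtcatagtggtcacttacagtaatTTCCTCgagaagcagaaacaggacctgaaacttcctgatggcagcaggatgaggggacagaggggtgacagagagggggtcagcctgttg
Cfp: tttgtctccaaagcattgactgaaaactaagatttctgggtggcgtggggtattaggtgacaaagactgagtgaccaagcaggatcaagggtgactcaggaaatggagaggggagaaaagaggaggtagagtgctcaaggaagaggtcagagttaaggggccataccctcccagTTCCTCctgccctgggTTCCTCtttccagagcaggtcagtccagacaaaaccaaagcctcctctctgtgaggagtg
C3ar1: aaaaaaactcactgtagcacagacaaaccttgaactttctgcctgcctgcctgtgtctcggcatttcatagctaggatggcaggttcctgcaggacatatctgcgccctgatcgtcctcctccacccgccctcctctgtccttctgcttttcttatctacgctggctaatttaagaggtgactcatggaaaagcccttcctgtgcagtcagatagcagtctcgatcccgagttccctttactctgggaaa
The GAS motif stood in the window of C1qa alone among the 5 members, 90 to 82 bases before the start, and in 7.67% of all 33469 RefSeq promoter windows of this length. The PU.1 core was found at 2 places in C1qb and at 2 places in Cfp, against 23.3% of all windows with at least 1. GAAANNGAA was in none of the 5, against 8.12% of all windows, and C3 and C3ar1 held none of the 3 motifs. No 2 matches overlapped in these windows. These are descriptions of letters, and no binding was measured.

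C3ar1 and C3 were the complement members called lower with siponimod, by 6.39-fold and 3.33-fold, and every one of the 7 members had a lower value in LPS/siponimod than in the LPS library of the same replicate number. Genes were called where the fold change reached 1.5 and the adjusted p did not exceed 0.05 in edgeR's quasi-likelihood test with Benjamini-Hochberg adjustment over the 11977 genes tested and with condition as the only term. By this rule 2 of the 7 members were called lower and 0 were called higher, against 11.7% of all genes tested called lower and 13.6% called higher. Libraries with the same replicate number deviated together across genes, and a second fit therefore took the replicate number as a block. In that fit 7 of 7 members were called lower, against 16.4% of all genes called lower and 17.7% called higher. The LPS and LPS/siponimod values did not overlap for 6 of the 7 members, against 24% of all genes with every siponimod library below every LPS library. All 7 members were lower in each of the 3 same-numbered pairs, against 35.4% of all genes, and 6 of 7 were at least 2-fold lower in each pair, against 5.65%. The median log2 fold change (FC) of the 7 members was -1.75, and that of all genes tested was -0.02.

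**Figure D1:**
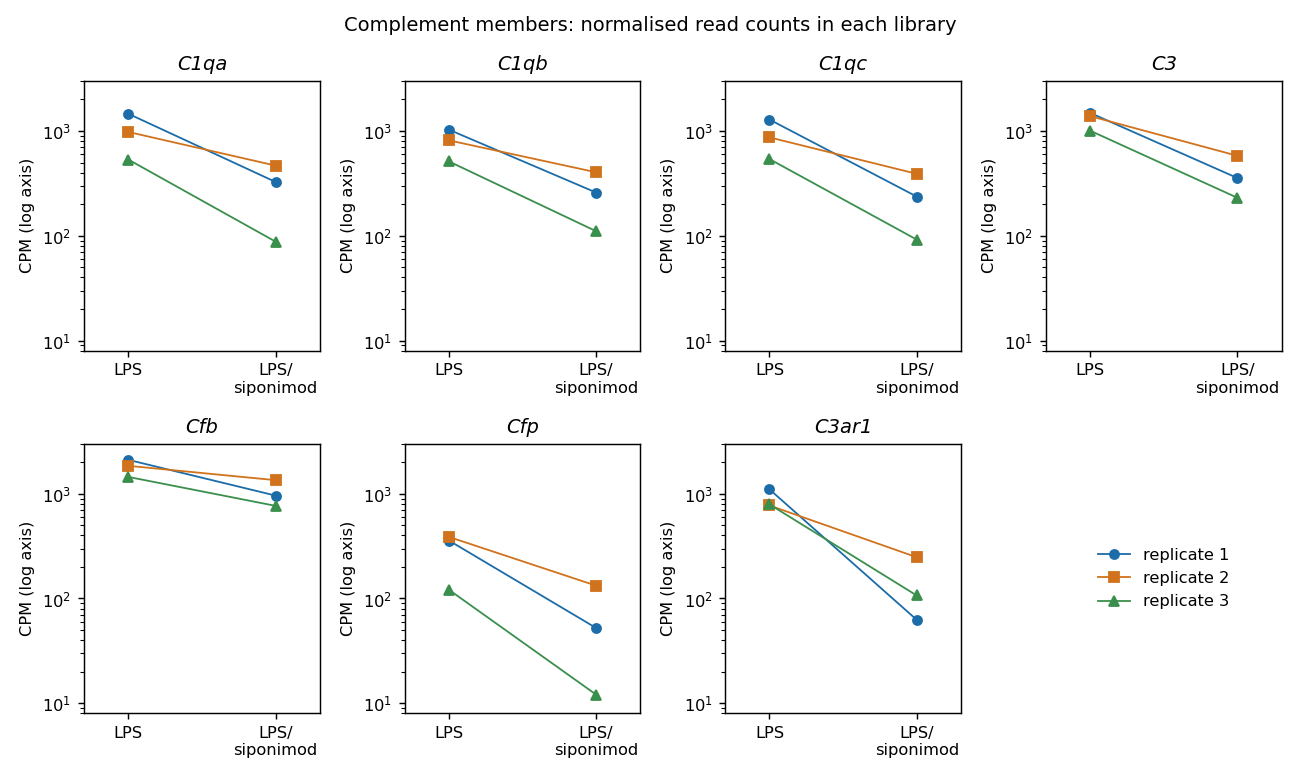
Normalised read counts (CPM, log axis) of the 7 complement members in LPS and LPS/siponimod. Each point is 1 library and lines join libraries with the same replicate number; every line falls, and only for Cfp does a siponimod library (133 CPM) reach above an LPS library (121 CPM).

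Among the recognition genes, the C1q chains stood 3.05- to 3.75-fold lower in LPS/siponimod, with a wide spread within each condition. C1qa, the A chain, had 1462, 980 and 535 CPM in LPS replicates 1, 2 and 3 and 327, 468 and 88.0 CPM in LPS/siponimod replicates 1, 2 and 3. C1qb, the B chain, had 1030, 815 and 513 CPM in LPS and 259, 404 and 111 CPM in LPS/siponimod. C1qc, the C chain, had 1287, 870 and 540 CPM in LPS and 237, 390 and 92.0 CPM in LPS/siponimod. For all 3 chains replicate 3 was the lowest library of its condition, replicate 1 was the highest of LPS and replicate 2 the highest of LPS/siponimod, and the groups did not overlap. C1qa averaged 992 ± 464 CPM (SD, n = 3) in LPS and 294 ± 192 CPM in LPS/siponimod, a log2 FC of -1.75 ± 0.66 (SE) that was not called (adjusted p = 0.0901, edgeR quasi-likelihood). C1qb gave -1.61 ± 0.50 (adjusted p = 0.0566) and C1qc gave -1.91 ± 0.58 (adjusted p = 0.0515), neither of them called in this test. C1qc lay at the threshold and was called with RLE in place of TMM normalization (adjusted p = 0.0498, edgeR) and with limma-voom (adjusted p = 0.0463). With the replicate block the SE was smaller for each chain and all 3 were called lower by edgeR, C1qa at -1.95 ± 0.34 (adjusted p = 0.0140), C1qb at -1.74 ± 0.28 (adjusted p = 0.0120) and C1qc at -2.06 ± 0.34 (adjusted p = 0.0121).

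The chains kept close ratios to each other within a library. The summed C1q counts were 3780, 2664 and 1587 CPM in LPS and 822, 1262 and 291 CPM in LPS/siponimod. C1qa counts per C1qb count were 1.42, 1.20 and 1.04 in LPS and 1.26, 1.16 and 0.796 in LPS/siponimod, so that the groups overlapped (log2 difference -0.20, exact permutation p = 0.5, two-sided). Within pairs 1, 2 and 3 this ratio was lower in LPS/siponimod each time, with log2 differences of -0.17, -0.05 and -0.39. C1qc counts per C1qb count were 1.25, 1.07 and 1.05 in LPS and 0.915, 0.966 and 0.832 in LPS/siponimod, a log2 difference of -0.31 without overlap (exact permutation p = 0.1; pairs -0.45, -0.14 and -0.34). With 3 libraries against 3 the exact permutation test cannot go below 0.1, and over the 5 ratios tested here the lowest adjusted p was 0.167. Across the 6 libraries the Pearson correlation of log2 CPM between chains was 0.991 to 0.999, and after centring each condition on its mean it was 0.992 to 0.997; these points share their libraries and are given as a description.

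C3, the central component of the cascade, was downregulated. Its values were 1491, 1388 and 1008 CPM in LPS and 356, 580 and 231 CPM in LPS/siponimod. Every siponimod library stood below every LPS library, and replicate 3 was again the lowest of both conditions. C3 averaged 1295 ± 254 CPM (SD, n = 3) in LPS and 389 ± 177 CPM in LPS/siponimod, a log2 FC of -1.74 ± 0.37 (adjusted p = 0.0211, edgeR quasi-likelihood). The call was lost on leaving out LPS replicate 1, LPS replicate 2, LPS/siponimod replicate 1 or LPS/siponimod replicate 3, with adjusted p up to 0.0986 while no log2 FC in these fits came closer to 0 than -1.46.

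Cfb encodes factor B, the protease of the alternative pathway convertase. It had 2106, 1847 and 1447 CPM in LPS and 960, 1347 and 766 CPM in LPS/siponimod. The groups did not overlap, but the difference was the smallest of the 7 members, and in replicate pair 2 the log2 difference was -0.46, less than 1.5-fold. The log2 FC was -0.81 ± 0.27 and was not called (adjusted p = 0.0682, edgeR quasi-likelihood), and with the replicate block it was called at -0.84 ± 0.21 (adjusted p = 0.0337). Counts of Cfb per count of C3 were 1.41, 1.33 and 1.44 in LPS and 2.70, 2.32 and 3.32 in LPS/siponimod. The ratio was thus higher in every siponimod library than in any LPS library, by 0.98 on the log2 scale (exact permutation p = 0.1 with libraries taken as unpaired, the smallest that test allows, and 0.167 after adjustment over the 5 ratios). Within pairs 1, 2 and 3 it was higher by 0.93, 0.80 and 1.21.

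Cfp encodes properdin, which stabilises the alternative pathway convertase. Its values were 358, 387 and 121 CPM in LPS and 52.3, 133 and 12.1 CPM in LPS/siponimod. It was the member with the widest spread, with a 3.20-fold range within LPS and a wider one within LPS/siponimod, and the groups overlapped, because LPS replicate 3 stood below LPS/siponimod replicate 2. Within pairs the log2 differences were -2.77, -1.55 and -3.32. The log2 FC was -2.14 ± 0.87 without the block and not called (adjusted p = 0.112, edgeR quasi-likelihood), and -2.55 ± 0.38 and called with it (adjusted p = 0.0101). Leaving out 1 library gave -3.16 (without LPS/siponimod replicate 2) to -1.64 (without LPS/siponimod replicate 3).

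C3ar1, the receptor for C3a, fell most of the 7 members by fitted log2 FC, though less than Cfp in pair 3 (log2 difference -2.89 against -3.32). It had 1101, 773 and 792 CPM in LPS and 62.6, 248 and 107 CPM in LPS/siponimod. The LPS libraries lay within 1.43-fold of each other, the siponimod libraries spread over 3.96-fold, and the highest of them stayed below all LPS libraries. The mean was 888 ± 184 CPM (SD, n = 3) in LPS and 139 ± 96.6 CPM in LPS/siponimod, a log2 FC of -2.68 ± 0.53 (adjusted p = 0.0174, edgeR quasi-likelihood). By log2 FC, C3ar1 ranked 152 from the lowest of the 11977 genes tested, whereas the other 6 members ranked between 289 (Cfp) and 2031 (Cfb). Leaving out LPS replicate 1, LPS replicate 2, LPS/siponimod replicate 1 or LPS/siponimod replicate 3 ended the call (adjusted p up to 0.0686 by edgeR), while no log2 FC came closer to 0 than -2.33; without LPS/siponimod replicate 2 it was -3.40 and called.

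C3ar1 varied between libraries in another order than the remaining members. In LPS/siponimod its lowest library was replicate 1, and in LPS it was replicate 2 (773 CPM, next to 792 CPM in replicate 3), whereas the C1q chains, C3, Cfb and Cfp were lowest in replicate 3 of both conditions. Counts of C3 per count of C3ar1 were 1.35, 1.80 and 1.27 in LPS and 5.69, 2.34 and 2.16 in LPS/siponimod, which did not overlap (log2 difference 1.07, exact permutation p = 0.1, adjusted 0.167 over the 5 ratios), with pair log2 differences of 2.07, 0.38 and 0.76. After centring on the condition mean, the correlation of log2 CPM with C3ar1 over the 6 libraries was 0.38 to 0.49 for the C1q chains and 0.62 for C3, against 0.94 to 0.98 between the chains and C3. The pair log2 differences of C3ar1 were -4.14, -1.64 and -2.89 in pairs 1, 2 and 3.

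**Figure D2:**
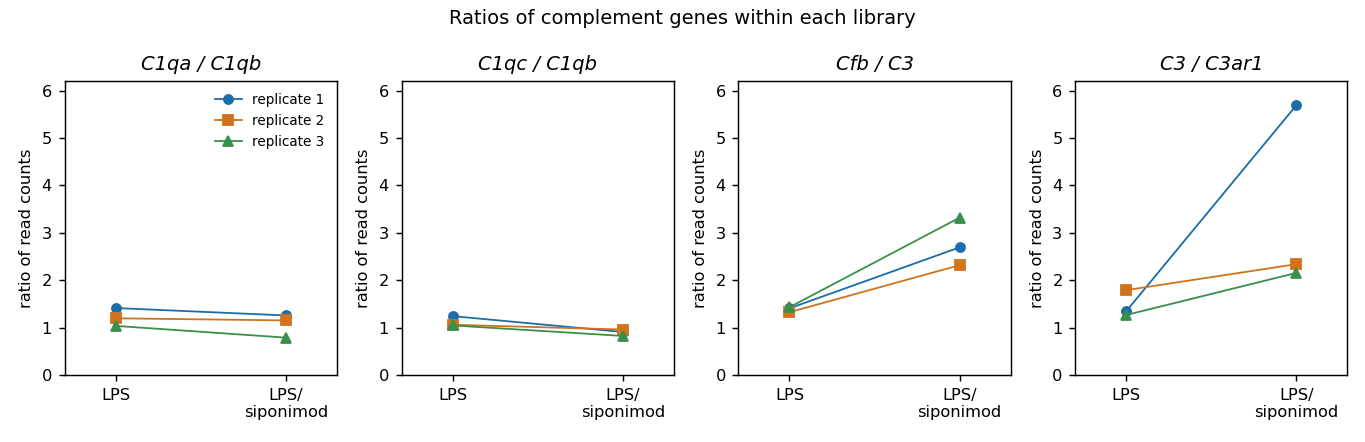
Ratios of read counts between complement genes within each library (linear axis from 0), with lines joining libraries of the same replicate number. C1qa per C1qb and C1qc per C1qb stay between 0.796 and 1.42, C1qc per C1qb being lower in every siponimod library than in any LPS library. Cfb per C3 and C3 per C3ar1 are higher in every siponimod library than in any LPS library.

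The libraries numbered 3 stood apart from the others in both conditions. On the second principal component of log2 CPM (22.8% of the variance) LPS replicate 3 lay at 73.1 and LPS/siponimod replicate 3 at 30.5, with the other libraries between -33.1 and -19.3, while the first component (64.0%) separated the conditions. The share of all counts taken by the 7 members was 0.829, 0.710 and 0.483% in LPS and 0.224, 0.368 and 0.148% in LPS/siponimod, lowest in replicate 3 of each condition. Without both libraries numbered 3 (a comparison chosen after seeing the data), 4 of 7 members (C1qa, C1qb, C1qc and C3) were called lower in place of 2, against 8.17% of all genes tested in that fit, whereas C3ar1 was no longer called (log2 FC -2.59, adjusted p = 0.0662, edgeR). With DESeq2 and with edgeR's likelihood ratio test, 7 of 7 members were called lower, against 16.1% and 14.5% of all genes tested. In bulk RNA, fewer cells of a type and less RNA of a gene per cell cannot be told apart.

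Of 44 other complement genes, 41 had a row in the tables and 23 passed the filter. By the fit without the block 3 were called lower (C1r, Itgam and Itgb2), 1 was called higher (Cd55) and 19 were not called, with a median log2 FC of -0.26. Over all genes tested, 11.7% were called lower and 13.6% higher. With the replicate block 5 were called lower and 2 higher, against 16.4% and 17.7%. A further 13 genes, among them the terminal pathway genes C8a, C8b and C9, Cfi (factor I) and Cr2, had at most 3 counts in every library, and Mbl2, C7 and Cd46 were not analysed here.

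**Figure D3:**
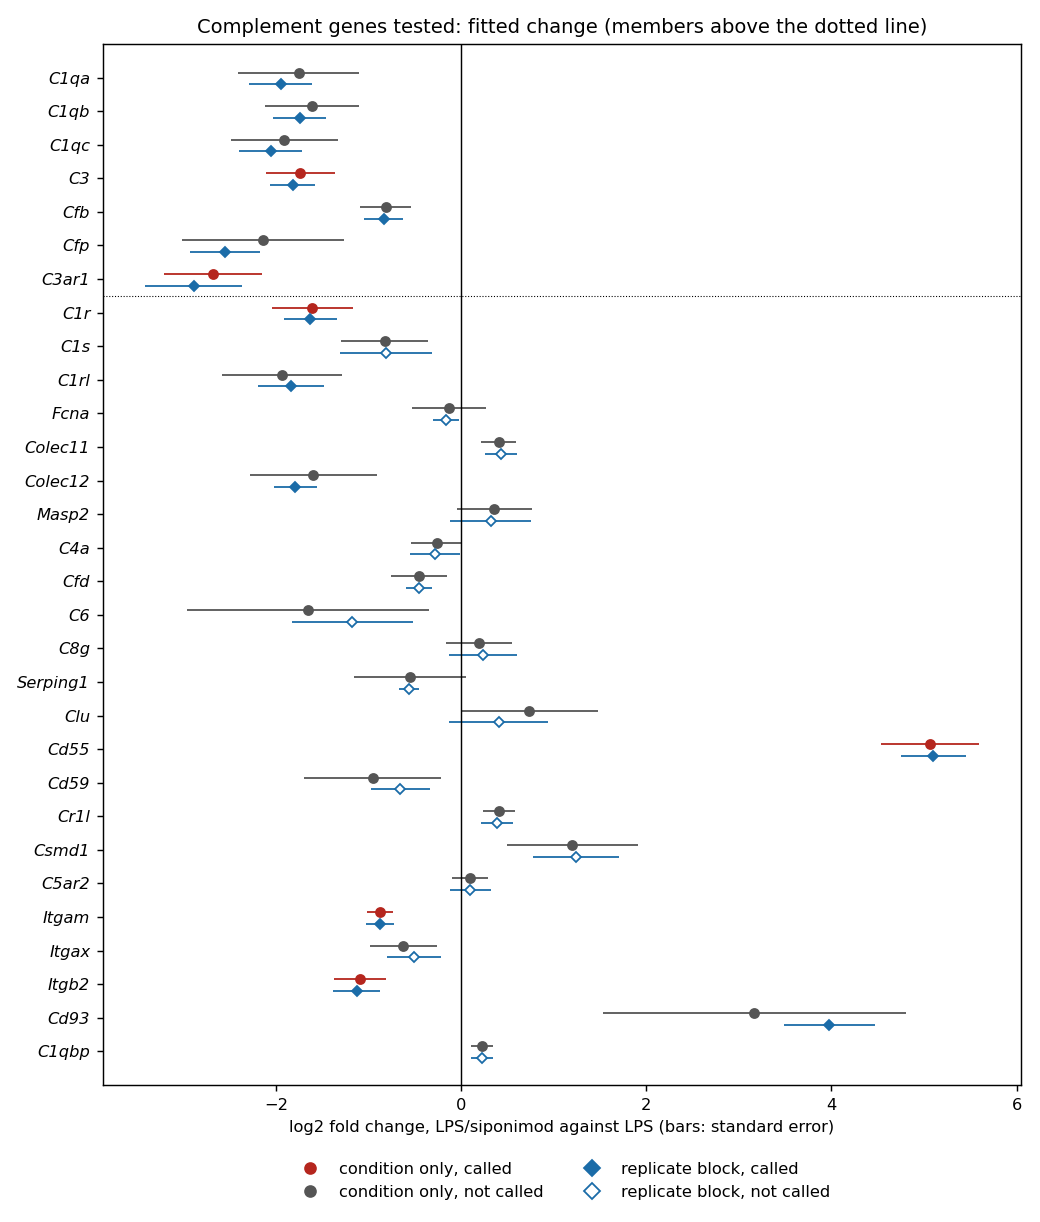
Fitted log2 fold change (LPS/siponimod against LPS) with its standard error for the 7 members and the 23 other complement genes tested, without the replicate block (circles, red where called) and with it (diamonds, filled where called). All 7 members lie left of 0, whereas the other genes lie on both sides, with Cd55 at 5.06.

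C1r, the protease that C1q activates, fell as well. It had 326, 228 and 143 CPM in LPS and 64.7, 117 and 47.3 CPM in LPS/siponimod, without overlap and with replicate 3 lowest in both conditions. The log2 FC was -1.60 ± 0.43 (adjusted p = 0.0383, edgeR quasi-likelihood). As for C3 and C3ar1, the call was lost without LPS replicate 1 or 2 or LPS/siponimod replicate 1 or 3, with adjusted p up to 0.150. The number of C1r counts per C1qb count was 0.317, 0.279 and 0.279 in LPS and 0.250, 0.290 and 0.428 in LPS/siponimod (log2 difference 0.11, exact permutation p = 0.8). In RefSeq, C1r, C1rl, Colec12, Cr1l, C5ar2 and Itgb2 each overlap another annotated locus, and whether the counting used strand is not stated, so reads of such a pair cannot be told apart. None of the 7 members overlaps another gene. C1rl, a related protease gene, had a log2 FC of -1.93 ± 0.65 that was not called (adjusted p = 0.0692) and was called with the block (adjusted p = 0.0175).

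In the lectin pathway none of the 4 genes tested was called without the block. Colec11, the most abundant of them, encodes a soluble collectin and had a log2 FC of 0.41 (adjusted p = 0.143, edgeR quasi-likelihood). Colec12, a scavenger receptor collectin named here after its values were seen, stood at -1.59 (adjusted p = 0.125) and was called lower with the block at -1.79 ± 0.23 (adjusted p = 0.00813). Cfd, which encodes factor D, the protease that activates factor B, had a log2 FC of -0.46 (adjusted p = 0.287). C6, a component of the membrane attack complex, had a log2 FC of -1.65 with an SE of 1.31 and was not called (adjusted p = 0.369). LPS replicate 1 held 248 reads of it against 73 and 5 in LPS replicates 2 and 3, and without that library the log2 FC was -0.14.

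Cd55, which encodes the membrane inhibitor of the C3 convertases known as decay-accelerating factor, went the other way. It had 6, 3 and 2 reads in LPS replicates 1 to 3 and 206, 151 and 94 reads in LPS/siponimod replicates 1 to 3, or 0.162, 0.0779 and 0.0538 CPM against 4.43, 3.38 and 2.29 CPM. The gene was thus close to the limit of detection with LPS and low but counted in every siponimod library. The log2 FC was 5.06 ± 0.53 (adjusted p = 0.00581, edgeR quasi-likelihood) and the gene was called in all 14 alternative fits. With 6 reads or fewer in each LPS library, the size of this fold change rests on very few reads.

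Among the remaining regulators, Serping1, the soluble inhibitor of C1r and C1s, had 208, 92.5 and 61.5 CPM in LPS and 142, 63.1 and 41.3 CPM in LPS/siponimod. The groups overlapped, each siponimod library was below the LPS library of its own number, and the gene was not called (log2 FC -0.55 ± 0.60, adjusted p = 0.513, edgeR). With the block the difference of -0.56 ± 0.11 had an adjusted p of 0.0171 by edgeR but stayed under 1.5-fold. In the fits without the block, the log2 FC of Serping1 turned to 0.11 without LPS replicate 1 and was -1.21 without LPS/siponimod replicate 1. Cr1l, a membrane regulator of C3 convertases, had 114, 107 and 103 CPM in LPS and 125, 126 and 178 CPM in LPS/siponimod. Although no value overlapped, it was not called (log2 FC 0.41, adjusted p = 0.124).

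**Figure D4:**
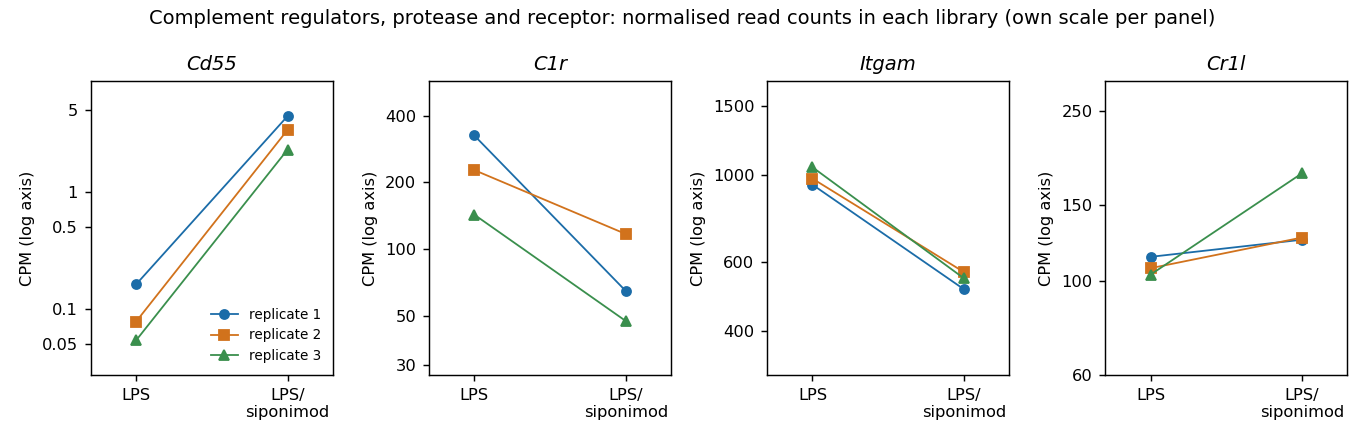
Normalised read counts (CPM, log axes with a scale of their own in each panel) of the convertase inhibitor gene Cd55, the C1 protease gene C1r, the complement receptor gene Itgam and the regulator gene Cr1l in each library, with lines joining the same replicate number. Cd55 is higher in every siponimod library, C1r and Itgam are lower in every one, and Cr1l stands at 103 to 114 CPM in LPS and 125 to 178 CPM in LPS/siponimod.

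Of the receptors, both subunits of CR3, the phagocytic receptor for C3 fragments, were downregulated. Itgam, its alpha subunit and one of the antigens of the purification beads (CD11b), had 946, 980 and 1048 CPM in LPS and 512, 566 and 546 CPM in LPS/siponimod. The conditions lay far apart beside the spread within each, and the log2 FC was -0.87 ± 0.14 (adjusted p = 0.0112, edgeR quasi-likelihood). Itgb2, the beta subunit shared by leukocyte integrins, had 1565, 1866 and 2109 CPM in LPS and 756, 1189 and 656 CPM in LPS/siponimod (log2 FC -1.09 ± 0.28, adjusted p = 0.0331). Of the 6 fits that left out 1 library, Itgam was called in 3 (not without LPS replicate 2 or LPS/siponimod replicate 1 or 3, adjusted p up to 0.0618) and Itgb2 in 1 (without LPS/siponimod replicate 2; otherwise adjusted p up to 0.135). Without both libraries numbered 3 neither was called by edgeR (adjusted p = 0.0527 for Itgam and 0.129 for Itgb2). Itgax, the alpha subunit of the related receptor CR4, overlapped between conditions and was not called (log2 FC -0.62, adjusted p = 0.228). LPS replicate 3 held 1073 CPM of Itgax against 489 and 455 CPM in LPS replicates 1 and 2, and without that library the log2 FC was -0.11. C5ar2, the alternative receptor for C5a, is given as the counterpart of the C5ar1 gene that was not analysed here; chosen after its values were seen, it had a log2 FC of 0.10 ± 0.19 (adjusted p = 0.725). Cd93, also chosen after its values were seen and once described as a C1q receptor, had 6, 15 and 335 reads in LPS and 335, 401 and 2861 reads in LPS/siponimod. In CPM the groups overlapped, LPS replicate 3 (9.02 CPM) standing above LPS/siponimod replicates 1 and 2 (7.21 and 8.98 CPM), and it was not called without the block (log2 FC 3.17 ± 1.63, adjusted p = 0.184) but was called higher with it (3.98 ± 0.49, adjusted p = 0.00740).

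Of 10 transcription factor genes known from work on complement promoters, 9 were tested, of which 1 was called lower and 2 were called higher, against 11.7% and 13.6% of all genes tested. Nr1h3, which encodes the liver X receptor alpha, fell with a log2 FC of -1.80 ± 0.34 (adjusted p = 0.0155, edgeR quasi-likelihood). Rela, an NF-kB subunit, rose by 0.80 ± 0.12 (adjusted p = 0.00886), and Cebpb, a factor of acute phase genes, rose by 0.95 ± 0.24 (adjusted p = 0.0321). Spi1, which encodes PU.1, was not called (-0.49 ± 0.19, adjusted p = 0.0970) and is named here, as are Irf8 and Cebpd, after the values were seen. With the block 3 of 9 were called lower and 2 higher, against 16.4% and 17.7% of all genes, Irf8 (-1.63 ± 0.28, adjusted p = 0.0133) and Cebpd (-1.29 ± 0.29, adjusted p = 0.0262) being the added ones.

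The genes with the highest Pearson correlation of log2 CPM with the members over the 6 libraries were taken from the 11970 tested genes outside the set, a measure that disregards the size of the difference. Pdcd7 (r = 0.996), Csf3r (0.995) and Mgat4a (0.995) came closest to the mean of the C1q chains, with log2 FCs of -0.24, -2.65 and -1.04, and 275 genes exceeded 0.95. For C3 they were Sumf2, Kdm1b and Fgr, each at 0.998 and with log2 FCs between -1.45 and -0.90, with 717 genes above 0.95. Rin2 (0.998), Tnfrsf8 (0.997) and Slc24a3 (0.997) were closest to C3ar1, with log2 FCs of -1.58, -2.87 and -1.75 and with 587 genes above 0.95. All points share the same 6 libraries and the difference between the conditions, so the values are descriptions.

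The microglial label was checked against its markers. All 10 microglial marker genes were counted in every library, and their summed level was 5794, 5045 and 3386 CPM in LPS and 2227, 3208 and 2016 CPM in LPS/siponimod. The sum was lower in every siponimod library than in any LPS library, and in both conditions it was lowest in replicate 3. Itgam is one of the 10 and was described above as a complement receptor; without it LPS/siponimod replicate 2 (2641 CPM) stood above LPS replicate 3 (2338 CPM). The most abundant of the markers on average was Csf1r, the receptor for colony-stimulating factor, with 3051, 2340 and 932 CPM in LPS and 636, 1309 and 491 CPM in LPS/siponimod. Cx3cr1 and P2ry12, named after their values were seen, were low. Cx3cr1 had 69, 202 and 35 reads in LPS and 3, 21 and 4 reads in LPS/siponimod, there at most 0.470 CPM. P2ry12 had 15.8, 15.8 and 1.16 CPM in LPS and 0.387, 2.37 and 0.317 CPM in LPS/siponimod. Of the 10 markers, 7 had a negative log2 FC and 3 a positive one. By the fit without the block 3 of the 10 were called lower, 1 was called higher and 6 were not called. The shares of all genes tested were 11.7% lower and 13.6% higher. With the block 5 were called lower and 1 higher, against 16.4% and 17.7% of all genes. Ptprc, the pan-leukocyte marker CD45 chosen after its values were seen, had a log2 FC of -0.02 ± 0.24 (adjusted p = 0.960, edgeR). The part of these markers in the complement result was not tested.

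Markers of neural cells, fibroblasts and neutrophils were low. The 8 astrocyte markers summed to 48.4, 24.2 and 25.0 CPM in LPS and 29.3, 28.8 and 59.6 CPM in LPS/siponimod, with Slc1a3 the most abundant and 6 of 8, Gfap and Aqp4 among them, under a mean of 1 CPM. The 8 oligodendrocyte lineage markers summed to 5.34, 5.37 and 36.0 CPM in LPS and 11.4, 10.3 and 22.6 CPM in LPS/siponimod, the 5 neuronal ones to 1.67, 1.01 and 11.3 CPM and to 4.37, 5.76 and 14.9 CPM (Tubb3 highest). Both of these sums were highest in the libraries numbered 3 of each condition. The sum of 36.0 CPM in LPS replicate 3 held Olig1 (13.9 CPM), Pdgfra (7.64 CPM) and Olig2 (6.46 CPM), each under 1 CPM in the other LPS libraries, while Mbp was the highest of the list in all the other libraries. The 6 fibroblast and mural markers reached 3.98 to 6.05 CPM in LPS and 4.64 to 11.9 CPM in LPS/siponimod. The most abundant on average was Col1a1 in LPS and Dcn in LPS/siponimod, and Dcn, a matrix proteoglycan gene, rose from 0.0810, 0 and 0.108 CPM to 9.81, 1.10 and 4.34 CPM (adjusted p = 0.0155, edgeR quasi-likelihood). Tested were 4 astrocyte, 3 oligodendrocyte lineage, 1 neuronal, 5 fibroblast and mural and 1 neutrophil marker. Of these, edgeR without the block called 1 astrocyte and 1 neutrophil marker lower, and 1 oligodendrocyte and 1 fibroblast marker higher. With the block 1 neuronal marker, Tubb3, was also called higher (adjusted p = 0.0316, edgeR). The shares of all genes tested were 11.7% lower and 13.6% higher without the block, and 16.4% and 17.7% with it. The 4 neutrophil markers stayed at or under 2.83 CPM in every library, with S100a8 the most abundant and Mpo and Elane at 0.

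Of 3 endothelial and 2 border macrophage genes tested, 1 of each list was called lower without the block, against 11.7% of all genes tested. With the block 3 endothelial genes and 1 border macrophage gene were called lower, against 16.4%. The 4 endothelial markers counted summed to 165, 213 and 93.0 CPM in LPS and 38.2, 81.9 and 26.2 CPM in LPS/siponimod, with Cdh5 the most abundant on average and Kdr at 0. The 3 border macrophage markers counted summed to 744, 428 and 612 CPM in LPS and 406, 325 and 504 CPM in LPS/siponimod. Mrc1, the mannose receptor gene, was the most abundant on average in LPS and fell, from 370, 279 and 326 CPM to 51.1, 81.1 and 50.8 CPM (log2 FC -2.41 ± 0.24, adjusted p = 0.00540, edgeR quasi-likelihood). Pf4, a chemokine gene and the most abundant in LPS/siponimod, stood at 375, 149 and 286 CPM in LPS and 355, 244 and 453 CPM in LPS/siponimod and was not called (log2 FC 0.38, adjusted p = 0.480, edgeR). The part of either list in the complement result was not tested. Mrc1, Col1a1, Olig1, Olig2, Pdgfra, Gfap and Aqp4 were named after their values were seen.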

How the data were processed

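Counts per gene in 3 LPS and 3 LPS/siponimod libraries of primary rat microglia were read from the tables as deposited. Per the labels and the methods, the authors captured mRNA, converted reads with bcl2fastq (2.20.0.422), trimmed bases below Q13 and mapped them to mRatBN7.2 in the CLC Genomics Workbench; these counts are not normalized, and how reads matching several genes were assigned is not stated. 1 row without a gene name was left out, and 6082 genes had no count. Library sizes were scaled by TMM, genes were filtered with filterByExpr (minimum count 10, total 15), and the 11977 genes left were tested with edgeR 4.0.16 (glmQLFit, glmQLFTest; R 4.3.3), checked on simulated counts. CPM are scaled to TMM library sizes; log2 CPM used a prior count of 2. Levels were compared between genes as ratios within a library and, for the most abundant gene of a list, by CPM, not per transcript length.

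Same-numbered libraries correlated after centring on condition means (0.420, 0.545 and 0.611, other pairs across conditions -0.534 to 0.0856). After such centring, a library's covariances with the libraries of the other condition cancel in sum. Positive values in same-numbered pairs thus push the other pairs down. The replicate number was taken to pair libraries from these same data, and the labels do not state what a number shares. The fit with condition only follows the methods, and the block is given where it changes a call. DESeq2 1.42.0 and limma 3.58.1 served as alternatives.

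Promoter windows, gene neighbours and strand come from RefSeq (GRCr8), whose build differs from that of the files. The members, gene lists and markers were chosen with earlier results of these data known. Named genes were all members, other complement genes and listed transcription factors that were called, the most abundant uncalled complement gene of each role, the top gene and genes at 0 of each marker list, and the 3 genes most correlated with each pattern; exceptions are stated. A further complement gene is not reported here.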

Additional observations from a re-analysis of the deposited data

How the results depend on the processing

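All 7 members kept a negative log2 FC in all 14 alternative fits and without both libraries numbered 3. The number of members called lower was 2 of 7 (11.7% of all genes lower). It was also 2 with no filter beyond 1 count (6.53%) and with a filter at a mean of 1 CPM (12.5%). It was 3 with RLE normalization (11.9%) and 3 with limma-voom (12%), C1qc being added. All 7 were called with DESeq2 (16.1%), the likelihood ratio test (14.5%) and the replicate block (16.4%). The number was 1 with glmTreat against 1.5-fold (2.48%), 4 without both libraries numbered 3 (8.17%), and 0 to 5 on leaving out 1 library each. It was 0 without LPS replicate 1 (5.13% of all genes lower), LPS replicate 2 (1.44%), LPS/siponimod replicate 1 (1.52%) or LPS/siponimod replicate 3 (2.24%), 5 without LPS/siponimod replicate 2 (11.6%) and 4 without LPS replicate 3 (14.5%). All genes called were 3036 (1403 lower, 1633 higher; 5234 at an unadjusted p under 0.05), 3898 with DESeq2 (1924 lower), 3570 with the likelihood ratio test (1738 lower), 4074 with the block (1960 lower), 2318 without both libraries numbered 3 (983 lower), 990 with glmTreat (297 lower, 693 higher), and 651 to 3713 on leaving out 1 library (182 to 1772 lower, 469 to 1941 higher; 1743 without LPS replicate 1, 651 without LPS replicate 2, 783 without LPS/siponimod replicate 1 and 1035 without LPS/siponimod replicate 3). Lower genes were 46.2% of calls, 30% with glmTreat and 24.4 to 49.5% on leaving out 1 library. Of the 23 other complement genes tested, 3 were called lower (11.7% of all genes), with 5 by DESeq2 (16.1%), 4 by the likelihood ratio test (14.5%), 5 with the block (16.4%) and 0 with glmTreat (2.48%). Called lower were 2 without both libraries numbered 3 (8.17%) and 0 to 3 on leaving out 1 library (1.44 to 14.5%). Those called higher were 1 (13.6%), with 2 with the block (17.7%), 2 without both libraries numbered 3 (11.1%) and 1 to 2 on leaving out 1 library (3.72 to 15.9%). The log2 FC of Serping1, not called in any fit, ranged from -1.21 to 0.11 on leaving out 1 library and turned to 0.11 without LPS replicate 1. The replicate block moved no other call of a member than those given above. The cause of these differences was not tested. Members had at least 496 counts in every library, so depth limited them little, and the common biological coefficient of variation between replicates was 0.355.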
